A study of Mus musculus with 165 samples.

Results

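The subject is a set of 9 complement genes in the brain and liver of ageing mice. The 9 are C1qa, C1qb, C1qc, C1ra, C3, C4a, C4b, Cfb and Serping1. They were chosen by symbol, and each was found once among the 55471 gene identifiers of both count tables. RNA was measured by polyA-selected, paired-end sequencing of whole brain and liver RNA from 83 male mice of the inbred strain C57BL/6J/Ukj, aged 3, 9, 15, 24 or 28 months; no other genotype or treatment is named. Brain was represented by 15, 16, 16, 17 and 18 mice from the youngest to the oldest age and liver by 16, 16, 16, 17 and 18. One 3-month brain is not analysed here. Libraries were made in 3 preparations (the labels' word is Prep), and each preparation held every age in both tissues.

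Complement is a blood-borne system of proteins that tags cells and debris for removal. C1q, a recognition molecule assembled from A, B and C chains, binds a target and activates the proteases C1r and C1s. These cut C4 and C2, the resulting convertase cuts C3, and factor B amplifies C3 cutting through the alternative pathway. C1 inhibitor, the product of Serping1, blocks C1r and C1s. Hepatocytes secrete most circulating complement, C1q comes mainly from macrophages, and in brain from microglia, and in the nervous system C1q and C3 are known for marking synapses for removal.

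Positions are given on GRCm38 with the GENCODE M21 annotation. C1qa, C1qb and C1qc are neighbours on the minus strand at chr4:136895917-136898803, chr4:136880129-136886187 and chr4:136889804-136893065. C1ra is at chr6:124512405-124523443 (plus strand), C3 at chr17:57203970-57228136 (minus) and Serping1 at chr2:84765387-84775444 (minus). C4b (chr17:34728380-34743882), C4a (chr17:34809092-34823464) and Cfb (chr17:34856374-34862518) share a stretch of the minus strand of chromosome 17. C4a is the mouse gene for sex-limited protein, a relative of C4 that C1s does not cut, and its gene model is annotated as a processed transcript rather than as protein-coding.

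The C4 pair is shown in sequence because reads of one could be counted for the other. Over 5367 aligned positions of the longest transcripts, C4a and C4b were 96.1% identical and differed at 207 positions. Of all 100-base windows, the read length used, 16.5% of those in either transcript were identical in the other. The 60-base exonic window below was the most divergent, with 13 differing bases in capitals, at chr17:34735430-34735489 for C4b and chr17:34816086-34816145 for C4a, both read 5′ to 3′ on the minus strand of GRCm38.
C4b: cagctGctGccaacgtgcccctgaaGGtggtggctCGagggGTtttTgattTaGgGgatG
C4a: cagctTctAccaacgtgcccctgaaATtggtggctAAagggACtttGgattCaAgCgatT
A similar limit holds for 2 other genes. Of the 100-base windows of C1ra, 35.9% also occurred in another gene, nearly all of them in C1rb, and 79.5% of the exonic bases of Cfb are overlapped on the same strand by the gene model Gm20547. How reads shared between genes were counted is not given in the sources used here, so the counts of C4a, C4b, C1ra and Cfb are uncertain to that extent.

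Promoter sequences were available for C1qb, C1qc, C1ra and C3 (RefSeq, GRCm38.p6, 250 bases before to 50 after the annotated start). Those of C1qb (chr4:136886151-136886450), C1qc (chr4:136892865-136893164) and C3 (chr17:57228087-57228386) are printed, all from the minus strand. Capitals mark matches, on either strand, to 5 motifs: the core of the macrophage factor PU.1 (GAGGAA), a C/EBP site (TTNNGNAA), a STAT site (TTCNNNGAA), an NF-kappaB site and a TATA box (TATAAA).
C1qb: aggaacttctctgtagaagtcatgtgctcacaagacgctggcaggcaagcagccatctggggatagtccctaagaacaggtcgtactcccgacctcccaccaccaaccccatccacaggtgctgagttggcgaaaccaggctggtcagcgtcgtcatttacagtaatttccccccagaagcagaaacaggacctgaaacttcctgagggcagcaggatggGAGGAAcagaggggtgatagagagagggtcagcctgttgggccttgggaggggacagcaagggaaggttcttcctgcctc
C1qc: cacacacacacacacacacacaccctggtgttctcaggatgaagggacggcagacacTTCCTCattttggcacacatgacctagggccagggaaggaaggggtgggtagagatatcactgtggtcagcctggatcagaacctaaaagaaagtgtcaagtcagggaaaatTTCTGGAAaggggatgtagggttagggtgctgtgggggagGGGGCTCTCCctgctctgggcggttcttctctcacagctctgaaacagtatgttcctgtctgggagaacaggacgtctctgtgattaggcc
C3: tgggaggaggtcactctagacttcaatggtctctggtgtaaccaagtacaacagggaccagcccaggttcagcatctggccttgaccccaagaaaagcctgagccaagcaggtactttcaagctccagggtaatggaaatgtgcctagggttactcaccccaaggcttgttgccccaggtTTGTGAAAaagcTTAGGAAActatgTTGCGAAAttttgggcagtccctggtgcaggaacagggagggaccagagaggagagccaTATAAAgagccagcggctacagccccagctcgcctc
The PU.1 core matched at -30 in C1qb and at -193 in C1qc, and it occurs in 28.3% of 27025 mouse promoters of this length. The C3 promoter held 3 C/EBP matches, at -70, -58 and -45, the last of which reads as a match on both strands, and a TATA match at 15. The C/EBP letters occur in 40.7% of promoters and TATAAA in 14.2%. C1qc also held a C/EBP match at -81 and an NF-kappaB match at -41, which 8.18% of promoters hold. C1ra, not printed, held a STAT match at 33, as 8.47% of promoters do, C/EBP matches at -72, -29 and 17, and a PU.1 match at 45. No matches of different motifs overlapped, and these letter matches are descriptions of the windows, not measured binding.

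Brain libraries held 11.5 to 73.4 M counts (M for mega, median 37.6 M) and liver libraries 5.82 to 57.5 M (median 32.9 M). By these markers each library had the tissue of its label: the neuronal gene Snap25 was at 966 or above on the counts-per-million (CPM) scale in every brain library and at 40.4 or below in every liver library, and albumin (Alb) was at 18.5 CPM or below in brain and 14018 or above in liver. The highest Snap25 and the lowest Alb of the livers, against medians of 0 and 67317 CPM, were both in 28-month mouse 14. The brain of 28-month mouse 15 stood apart, with the fewest counts of its tissue and a root mean square deviation from its group of 1.65 log2 units against a median of 0.207, followed by the brain of 24-month mouse 13 at 0.859. In liver, 24-month mouse 13 (0.774) and 3-month mouse 12 (0.605) stood farthest from their groups, closely followed by 28-month mouse 14 (0.602), against a median of 0.300. A clock gene score, which rises with Dbp, Hlf and their co-phased genes and falls with Arntl, also moved with age: its median went from -0.37 at 3 months to 0.99 at 28 months in brain, and from -1.08 to 1.50 in liver.

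At 3 months the 3 C1q chains were the most abundant of the 9 in brain and C3 the most abundant in liver. Per kilobase of the longest transcript, brain held 41.2 ± 4.89 CPM of C1qa, 37.2 ± 5.26 of C1qb and 33.0 ± 3.96 of C1qc (SD, n = 15). C4b followed at 7.75 ± 2.16, Serping1 at 4.03 ± 1.15, C4a at 0.537 ± 0.0865, C1ra at 0.509 ± 0.160 and C3 at 0.271 ± 0.165. In that order the intervals of mean ± SD overlapped between neighbouring C1q chains, between C4a and C1ra, and between C1ra and C3. By 28 months C4b had reached 39.0 ± 7.98 CPM per kilobase (n = 18). Its interval overlapped those of C1qa at 74.3 ± 54.6, C1qb at 59.2 ± 26.75 and C1qc at 50.4 ± 12.2. C3 at 0.884 ± 0.404 had a higher mean than C4a at 0.556 ± 0.158, with overlapping intervals.

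In 3-month liver C3 was at 1443 ± 482 CPM per kilobase (n = 16), Serping1 at 488 ± 100 and C4b at 285 ± 94.9. C1ra stood at 96.5 ± 6.81, the C1q chains at 54.4 to 61.0, Cfb at 15.1 ± 4.36 and C4a at 6.69 ± 4.32. The intervals of mean ± SD overlapped among the 3 C1q chains and between Cfb and C4a. As 79.5% of the exonic bases of Cfb are overlapped by Gm20547, its level and rank per kilobase are uncertain. By 28 months the C1q chains stood at 145 to 154 and C1ra at 87.8 ± 7.44 (n = 18), so that the mean of C1ra ranked below theirs. Its interval overlapped those of C1qa at 149 ± 60.8, C1qb at 154 ± 68.0 and C1qc at 145 ± 65.8.

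Ageing of the brain was followed through the 4 older ages against 3 months, with the age terms and preparation in one edgeR quasi-likelihood model over 18711 genes and Benjamini-Hochberg adjustment over all of them. C4b rose at every older age and reached 5.01-fold at 28 months. C3, the 3 C1q chains and C1ra were higher at 24 and at 28 months, whereas Serping1 and C4a did not pass the test at any age. Cfb, at 0 to 14 counts in a brain library, did not pass the filter on low counts. Of the 8 members tested, 1 was called at 9 months, where 0.315% of all genes were called, 1 at 15 months (0.871%), 6 at 24 months (10.1%) and 6 at 28 months (28.3%), all of them higher; 6.19% and 16.3% of all genes were called higher at 24 and 28 months. With all ages tested together 6 members were called, and 20.6% of all genes. The median log2 fold change of the 8 was 0.13, 0.21, 0.54 and 0.67 at these ages, and that of all genes was between -0.003 and 0.008.

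**Figure D1:**
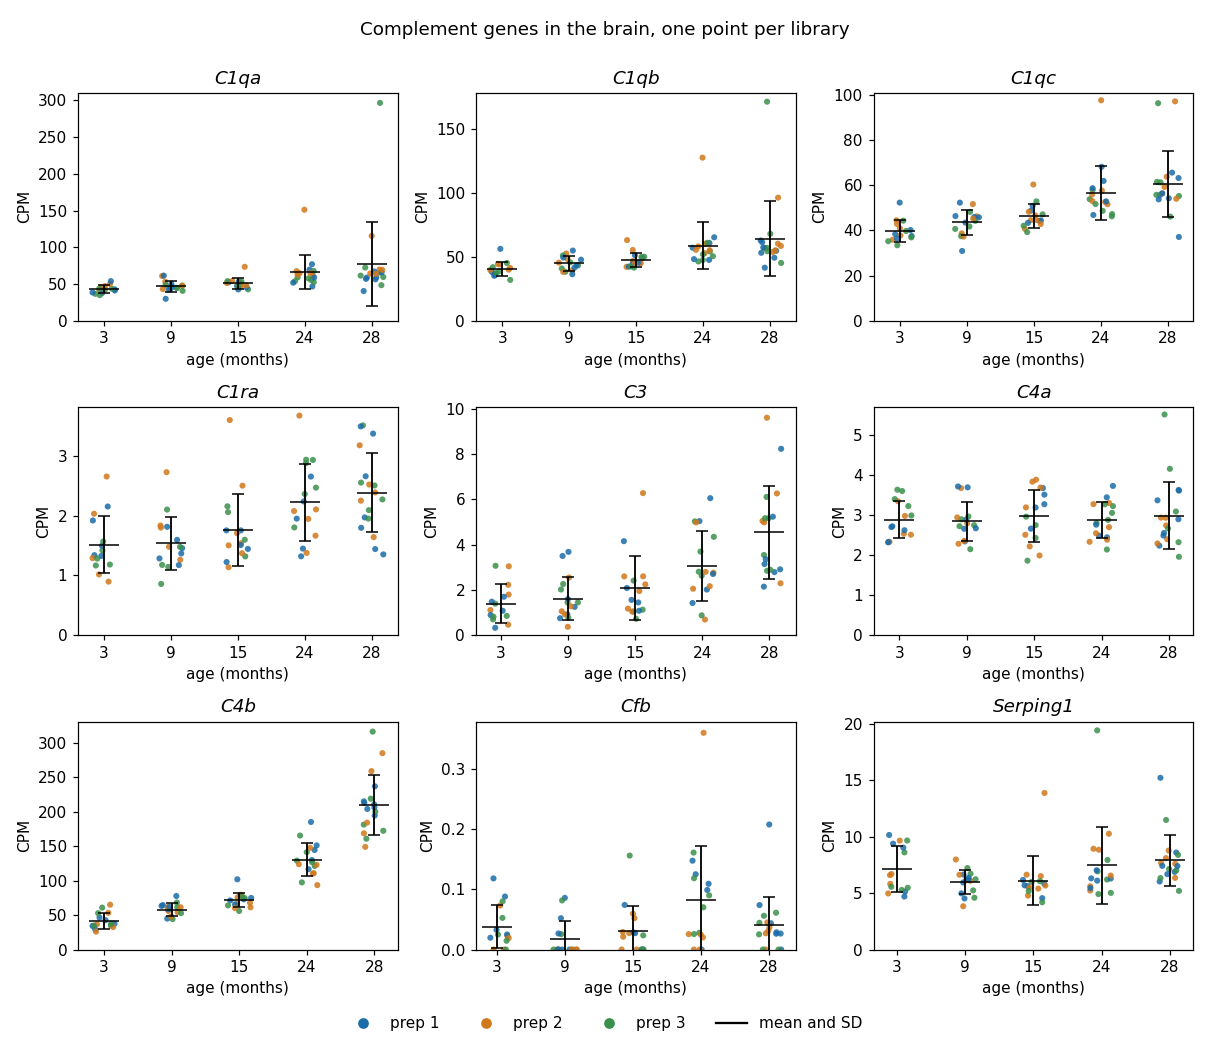
Level of each complement gene in every brain library, as TMM-scaled counts-per-million (CPM, y axis) by age in months (x axis); each point is 1 mouse, coloured by preparation, with the group mean and SD as bars. All C4b points at 24 and 28 months lie above the highest 3-month point of 65.1 CPM, whereas the C4a points overlap at all ages.

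C4b, the gene of the C4 protein that C1s cuts and that binds to targets, separated the ages most. Its level was 26.0 to 65.1 CPM at 3 months (median 37.5, n = 15), 44.3 to 77.8 at 9 months (median 59.8, n = 16) and 56.0 to 102 at 15 months (median 72.1, n = 16). It was 93.6 to 185 CPM at 24 months (median 127, n = 17) and 149 to 317 at 28 months (median 205, n = 18). All 17 libraries of 24 months and all 18 of 28 months were above the highest library of 3 months, and 12 of 16 were so at 15 months. The log2 fold change against 3 months was 0.47 ± 0.10 (SE) at 9 months, 0.79 ± 0.10 at 15 months, 1.64 ± 0.10 at 24 months and 2.32 ± 0.10 at 28 months, with edgeR adjusted p = 0.00942, 3.98e-08, 9.45e-23 and 5.65e-32. By size of log2 fold change at 28 months C4b ranked 32 among the 18711 genes.

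The rise in brain C4b continued between neighbouring late ages. From 15 to 24 months the log2 fold change was 0.86 ± 0.10 (edgeR, Benjamini-Hochberg adjusted p = 3.14e-09), and 15 of 17 libraries of 24 months exceeded the highest of 15 months. From 24 to 28 months it was 0.68 ± 0.09 (adjusted p = 3.92e-06), with 12 of 18 libraries above the 24-month maximum. C4b was the 1 member called in each of these steps, where 0.732% (0.679% higher) and 1.09% of all genes were called; without the 28-month library of mouse 15 the step from 15 to 24 months held 4 called members, and 294 genes were called in all. From 9 to 15 months the value was 0.32 ± 0.10 with an adjusted p of 1.00. Within preparations 1, 2 and 3 the change from 3 to 28 months in C4b was 2.47, 2.29 and 2.23, and without the 28-month library of mouse 15 it was 2.28.

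C3, the central component whose fragments coat targets, was scarce in brain and passed the test against 3 months at 24 and 28 months. Its level was 0.325 to 3.06 CPM at 3 months (median 1.11, n = 15), 0.689 to 6.05 at 24 months (median 2.76, n = 17) and 2.14 to 9.61 at 28 months (median 4.26, n = 18), which corresponded to 11 to 426 counts in a library. Of the 18 oldest brains, 12 were above the highest youngest brain, so the groups overlapped. The log2 fold change was 1.16 ± 0.28 at 24 months (edgeR adjusted p = 0.00302) and 1.70 ± 0.28 at 28 months (adjusted p = 1.88e-06), a 3.26-fold rise that ranked 73 among all genes. C3 did not pass the test at 9 months (log2 fold change 0.22 ± 0.29) or 15 months (0.56 ± 0.29). Neither late step passed either, with 0.59 ± 0.27 from 15 to 24 months (edgeR adjusted p = 0.483) and 0.55 ± 0.26 from 24 to 28 months (adjusted p = 0.356). A late rise was thus not told apart from a gradual one. Within the 3 preparations the change at 28 months was 1.85, 1.70 and 1.65, with adjusted p = 0.0817 in preparation 2 alone.

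The chains of C1q, the recognition unit of the classical pathway, moved by similar amounts. C1qa was at 34.8 to 53.9 CPM at 3 months (median 42.7, n = 15) and at 40.4 to 297 at 28 months (median 64.0, n = 18). C1qb was at 32.0 to 56.3 CPM (median 39.8) and 41.6 to 172 (median 57.0), and C1qc at 33.4 to 52.3 (median 38.3) and 37.1 to 97.1 (median 56.3). For C1qa and C1qc 16 of the 18 oldest brains, and for C1qb 10, were above the highest youngest brain, so the ages overlapped for each chain. That youngest maximum was the brain of 3-month mouse 15 for each chain, at 56.3 CPM of C1qb where the next held 45.3. The log2 fold changes at 28 months were 0.84 ± 0.14 for C1qa, 0.67 ± 0.11 for C1qb and 0.61 ± 0.08 for C1qc, with edgeR adjusted p = 2.83e-06, 2.04e-06 and 8.58e-09. At 24 months they were 0.60 ± 0.14, 0.53 ± 0.11 and 0.51 ± 0.08, and at 9 and 15 months they lay between 0.13 and 0.23, with adjusted p of 0.396 or above.

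The size of the C1q rise rested in part on single brains. The 28-month library of mouse 15 held 297 CPM of C1qa and 172 of C1qb, where the next brain of its age held 115 and 96.5 and the brain of 24-month mouse 13 held 151 and 128. Its C1qc, at 96.2 CPM, was close to the 97.1 of 28-month mouse 8 and the 97.5 of 24-month mouse 13, against a median of 56.3 at 28 months. Without it the changes were 0.59 for C1qa, 0.52 for C1qb and 0.56 for C1qc, all still past the threshold. Within preparations 1, 2 and 3 C1qa changed by 0.43, 0.75 and 1.30 and C1qc by 0.43, 0.72 and 0.72. The 28-month library of mouse 15 was in preparation 3. With the clock gene score in the model, C1qa was at 0.32 with an adjusted p of 0.0994, while C1qb at 0.34 and C1qc at 0.44 stayed past the threshold. The highest clock score of all brains, 3.17, was that of the same mouse 15, and the part of the clock genes in the result was not tested further.

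C1q was accompanied by genes of microglia, the resident macrophages of the brain. Of 12 microglial markers such as Tmem119 and P2ry12, 8 rose and 1 fell at 28 months. The median of their log2 fold changes was 0.20, and their summed level was 416 to 510 CPM at 3 months and 436 to 814 at 28 months. Of 13 genes of activated microglia, 11 rose and none fell (median 0.60), and their sum was 1518 to 2163 CPM at 3 months and 1345 to 7552 at 28 months. Among 7 markers of macrophages at the brain's borders 1 rose (median 0.09). Of all brain genes 16.3% were called higher and 12% lower at this age, so the border macrophage count was near the background. In bulk tissue, more cells of a type and more RNA per cell cannot be told apart, and the part of these cells in the C1q result was not tested.

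The remaining members in brain were the C1r protease, C1 inhibitor, C4a and Cfb. C1ra was at 0.897 to 2.66 CPM at 3 months (median 1.34) and 1.35 to 3.51 at 28 months (median 2.33), with 17 to 178 counts in a library over all ages. Of the 18 oldest brains 5 lay above the highest youngest brain, and the log2 fold change was 0.67 ± 0.15 (edgeR adjusted p = 0.000256) after 0.56 ± 0.15 at 24 months (adjusted p = 0.00684). Within the preparations C1ra changed by 0.50, 0.60 and 0.92, and it passed the threshold in preparation 3 alone. Serping1 was at 4.70 to 10.2 CPM at 3 months and 5.20 to 15.2 at 28 months, with a log2 fold change of 0.15 ± 0.14 (adjusted p = 0.45). C4a was at 2.32 to 3.63 CPM and 1.96 to 5.51, with 0.03 ± 0.10 (adjusted p = 0.872). Cfb, factor B, was at 0 counts in 3 of 15, 11 of 16, 6 of 16, 3 of 17 and 4 of 18 brains in order of age and never above 0.360 CPM, too little to compare ages.

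**Figure D2:**
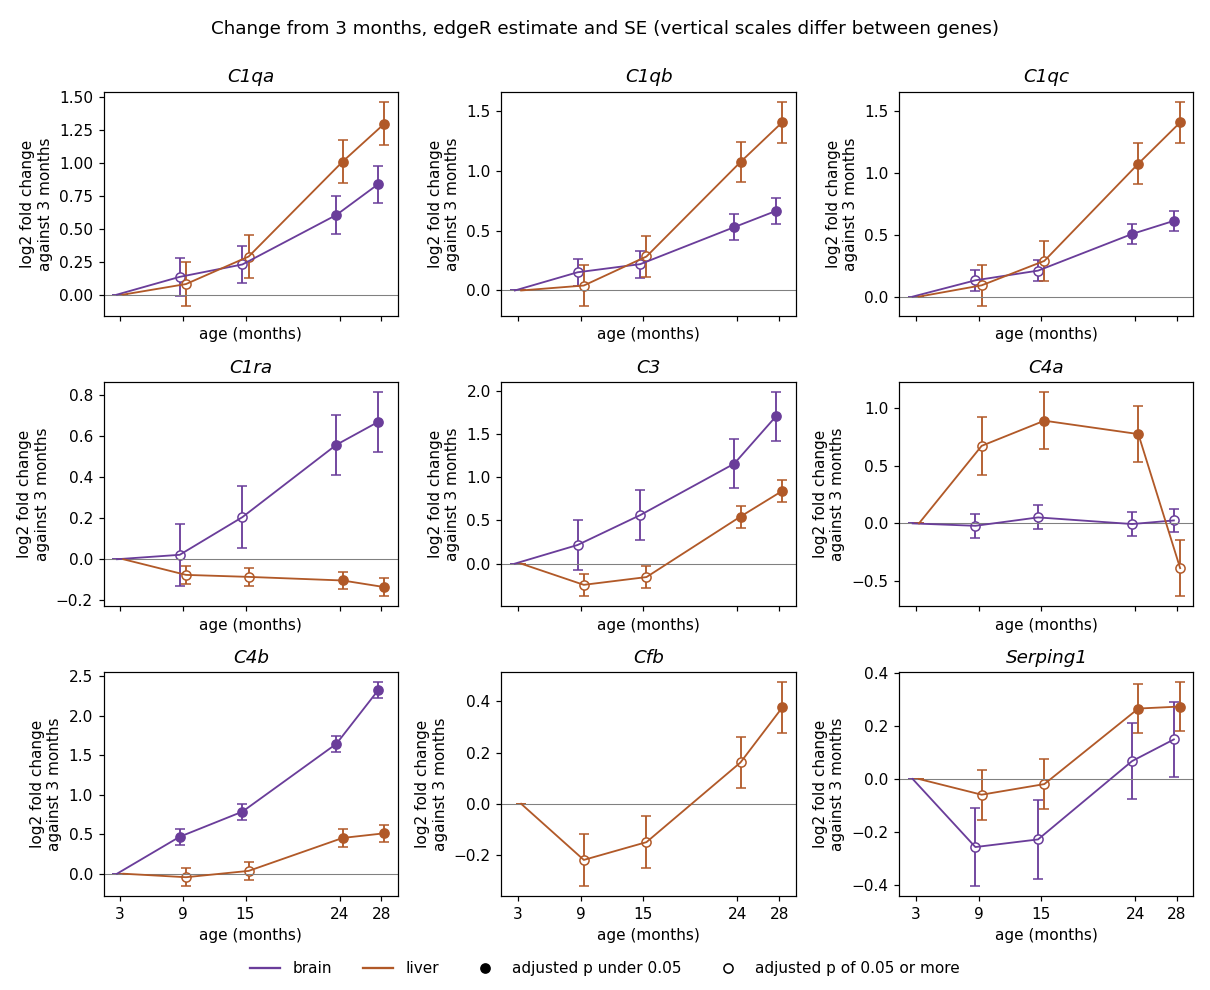
Log2 fold change against 3 months (y axis, scales differ between genes) by age in months (x axis) for each complement gene, brain in purple and liver in orange, bars being 1 SE; filled points have an edgeR adjusted p under 0.05. Brain C4b climbs to 2.32 at 28 months against 0.51 in liver, while the C1q chains reach 1.30 to 1.41 in liver against 0.61 to 0.84 in brain.

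C4a and C4b, neighbours of near-identical sequence, did not move together in brain. C4a made up 4.89% to 9.47% of the summed C4a and C4b counts at 3 months (median 6.36%) and 0.833% to 2.35% at 28 months (median 1.48%). The youngest and the oldest brains did not overlap in this share. When the counts of both genes were added, brain C4 at 28 months was 2.25 log2 units above 3 months, close to C4b alone. In liver the share was 0.529% to 7.08% at 3 months (median 2.01%), rose to medians of 3.61% and 3.53% at 9 and 15 months and stood at 0.446% to 4.33% at 28 months (median 1.00%), with overlap at all ages.

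**Figure D3:**
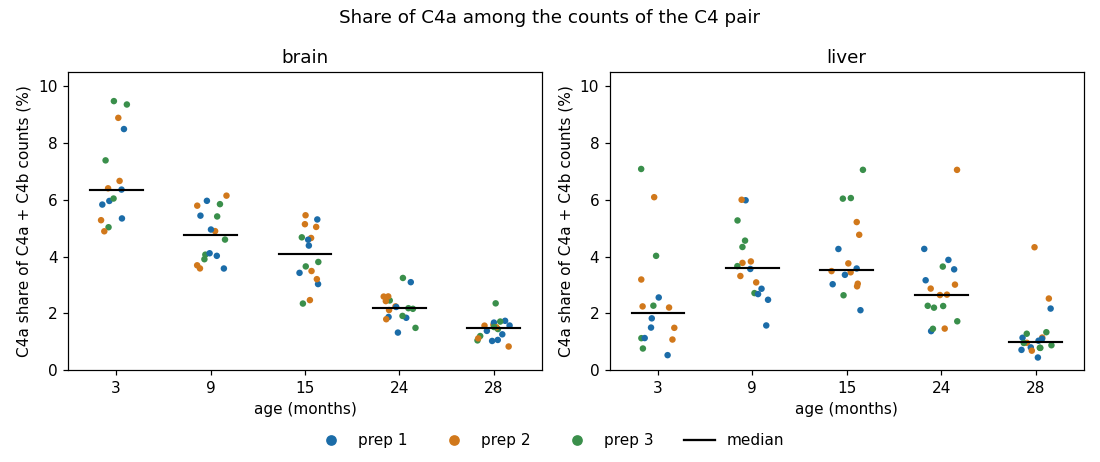
Share of C4a in the summed C4a and C4b counts (percent, y axis) by age in months (x axis) in brain and liver; each point is 1 library and the short line is the group median. In brain the median goes from 6.36% to 1.48% with no overlap between 3 and 28 months, whereas liver libraries overlap at every age.

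In liver 7 of the 9 members changed between 15 and 24 months, all but C1ra and C4a. Here 15579 genes were tested in the same kind of model, and all 9 members passed the filter. The C1q chains, C3, C4b and Serping1 rose at 24 and 28 months, Cfb at 28 months, C4a at 15 and 24 months, and C1ra fell at 24 and 28 months. Of the 9 members, 1 was called at 15 months (7.32% of all genes), 8 at 24 months (49%) and 8 at 28 months (61.9%), 7 of the 8 higher at each age; 25% and 31.9% of all genes were called higher, and 24% and 30% lower. With all ages tested together all 9 were called, and 71.5% of all genes. At 9 months the lowest edgeR adjusted p of a member was 0.0965, for C4a, and 4.69% of all genes were called. Without the livers of 24-month mouse 13 and 3-month mouse 12 the count at 15 months was 4, and 1636 genes were called in all against 1140 with them. From 15 to 24 months 7 members were called, all higher, against 36% of all genes (21.6% higher). The median log2 fold change of the 9 was -0.04, 0.04, 0.54 and 0.51 at the 4 older ages, and that of all genes was between -0.02 and 0.01. Most liver genes were called at 28 months, and the count of 8 is read against that background.

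**Figure D4:**
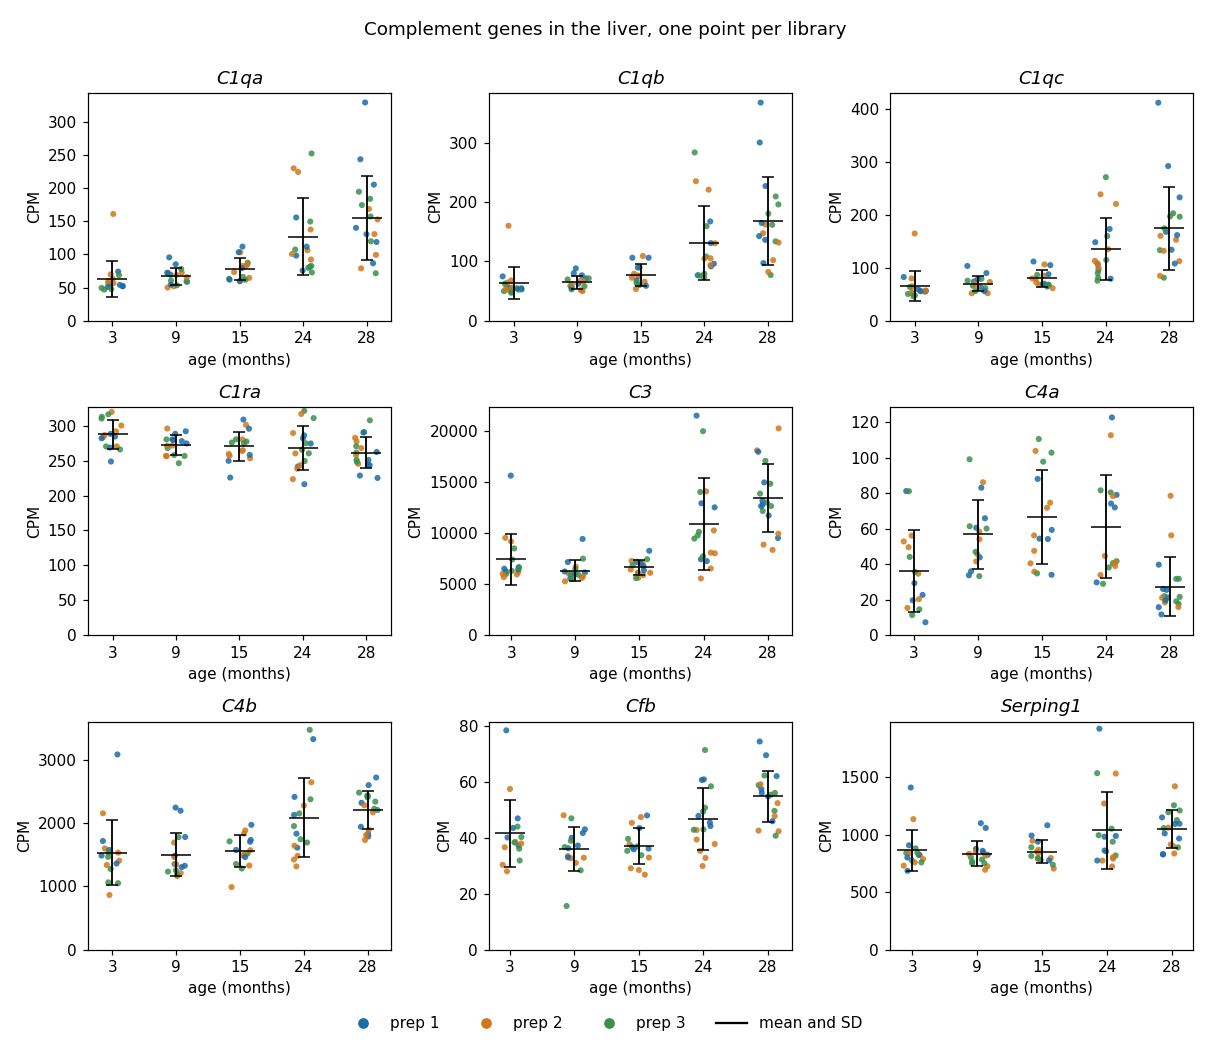
Level of each complement gene in every liver library, as TMM-scaled counts-per-million (CPM, y axis) by age in months (x axis); each point is 1 mouse, coloured by preparation, with the group mean and SD as bars. C1q and C3 spread upward at 24 and 28 months, and C4a is highest at 9 to 24 months and lowest at 28.

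The C1q chains showed the largest changes of the 9 in liver at 28 months. C1qa was at 46.8 to 161 CPM at 3 months (median 55.3, n = 16), 72.7 to 252 at 24 months (median 106, n = 17) and 71.5 to 329 at 28 months (median 146, n = 18). C1qb was at 47.1 to 160 CPM (median 55.0) at 3 months and 77.1 to 368 (median 155) at 28 months, and C1qc at 45.8 to 165 (median 56.3) and 81.3 to 412 (median 161). One 3-month liver, that of mouse 12, held 160 to 165 CPM of each chain where the next held 74.0 to 82.6, so 7, 9 and 8 of the 18 oldest livers were above the youngest maximum for C1qa, C1qb and C1qc. The log2 fold changes at 28 months were 1.30 ± 0.17, 1.41 ± 0.17 and 1.41 ± 0.17, with edgeR adjusted p = 2.96e-10, 6.43e-11 and 2.81e-11. From 15 to 24 months alone the chains rose by 0.72 to 0.79. Preparation 2 gave 0.70 to 0.73 for the chains, with adjusted p of 0.0584 to 0.0661, and the other preparations 1.49 to 1.79. The 3-month liver of mouse 12 was in preparation 2. Without it the changes over all preparations were 1.45 for C1qa, 1.56 for C1qb and 1.56 for C1qc. The part of that liver in the lower values of preparation 2 was not tested.

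Markers of macrophages and of other blood cells moved with liver C1q. Of 8 Kupffer cell markers, the liver's resident macrophages, 7 rose and 1 fell at 28 months (median log2 fold change 1.37); the one that fell was C6, which is also a terminal complement component. Their sum was 507 to 1337 CPM at 3 months and 473 to 4295 at 28 months. All 6 neutrophil markers rose (median 4.51; 1.56 to 16.8 against 5.62 to 685 CPM), as did all 6 B lineage markers (median 2.86; 5.97 to 24.0 against 14.1 to 339 CPM) and 5 of 6 T lineage markers (median 1.99). None of 7 hepatocyte markers rose and 1 fell (median 0.08). Of all liver genes 31.9% were called higher and 30% lower at this age. The part of these cells in the C1q result was not tested.

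C3 had the highest level of the 9 genes in liver at all ages. It was at 5667 to 15590 CPM at 3 months (median 6460, n = 16), 5583 to 8243 at 15 months (median 6574, n = 16), 5538 to 21454 at 24 months (median 9745, n = 17) and 8333 to 20207 at 28 months (median 12858, n = 18). The high 3-month value came from mouse 15, with 9510 next, and 4 of 18 oldest livers were above it. The log2 fold change was -0.24 ± 0.13 at 9 months, 0.54 at 24 months (edgeR adjusted p = 0.000258) and 0.84 ± 0.13 at 28 months (adjusted p = 2.80e-08). From 15 to 24 months C3 rose by 0.70 ± 0.13 (adjusted p = 2.35e-05). Within the preparations the change to 28 months was 0.66, 0.89 and 1.00, past the threshold in each. The highest 28-month value was in mouse 14, whose Alb was the lowest, and without that liver the change was 0.79.

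C4b, Serping1 and Cfb rose less in liver than C3. C4b was at 864 to 3089 CPM at 3 months (median 1477) and 1735 to 2724 at 28 months (median 2256), with a log2 fold change of 0.51 ± 0.11 (edgeR adjusted p = 3.83e-05). No 28-month liver was above the 3-month maximum, again the liver of mouse 15, whose nearest neighbour was at 2158. Serping1 was at 685 to 1411 CPM (median 824) and 829 to 1422 (median 1060), with 0.27 ± 0.09 (adjusted p = 0.00825). Cfb was at 28.0 to 78.3 CPM (median 38.3) and 40.7 to 74.3 (median 55.6), with 0.38 ± 0.10 (adjusted p = 0.000755) after 0.16 at 24 months, which did not pass the test. In these 3 genes the ages overlapped widely, and within preparations 1, 2 and 3 the change was 0.26, 0.42 and 0.87 for C4b, 0.09, 0.29 and 0.45 for Serping1 and 0.27, 0.36 and 0.49 for Cfb, each past the threshold in preparation 3 alone.

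Acute phase genes, which hepatocytes switch on in inflammation, were higher in the same old livers. All 8 on the list, among them Saa1 and Orm1, rose at 28 months (median log2 fold change 1.95), with a summed level of 2433 to 18153 CPM at 3 months and 4340 to 41152 at 28 months, where 31.9% of all liver genes were called higher. Their part in the change of C3, C4b, Cfb and Serping1 was not tested.

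C1ra and C4a were the members of the liver that did not rise with age to 28 months. C1ra was at 249 to 320 CPM at 3 months (median 286) and 225 to 308 at 28 months (median 260), and 6 of 18 oldest livers were below the youngest minimum. Its log2 fold change was -0.14 ± 0.04 (edgeR adjusted p = 0.0047), so that it fell by 8.99%, and -0.10 at 24 months (adjusted p = 0.041). It lay between -0.16 and -0.13 in each preparation alone, where adjusted p was 0.136 to 0.265, and at -0.09 with the clock score in the model (adjusted p = 0.131).

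C4a followed a course of its own, up in mid-life and down at the oldest age. It was at 7.24 to 81.1 CPM at 3 months (median 32.0), 33.2 to 99.0 at 9 months (median 56.1), 34.0 to 110 at 15 months (median 57.7), 28.9 to 123 at 24 months (median 44.6) and 11.7 to 78.5 at 28 months (median 21.4). The ages overlapped throughout, and the 3-month livers held the lowest value. Against 3 months the log2 fold change was 0.89 ± 0.25 at 15 months (edgeR adjusted p = 0.0167), 0.77 ± 0.25 at 24 months (adjusted p = 0.00671) and -0.39 ± 0.24 at 28 months (adjusted p = 0.156). From 24 to 28 months it fell by 1.16 ± 0.24 on the log2 scale (adjusted p = 0.000277), or 55.3%, and 13 of 18 livers of 28 months were below the 24-month minimum. C4a was the 1 member called in this step, where 15.3% of all genes were called (9.13% lower). With the clock score in the model the step was -0.81 with an adjusted p of 0.121; the part of the clock genes in this step was not tested further.

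The change from 3 to 28 months differed between the tissues for 6 of the 8 members tested in both, where 49.2% of 14035 genes differed. C4b rose more in brain, by 1.77 ± 0.15 log2 units (edgeR interaction term, adjusted p = 7.44e-21), as did C3 by 0.82 ± 0.29 (adjusted p = 0.0135). C1ra, higher with age in brain and lower in liver, differed by 0.78 ± 0.14 (adjusted p = 1.69e-06). The C1q chains went the other way, with brain minus liver of -0.50 ± 0.21 for C1qa (adjusted p = 0.0392), -0.78 ± 0.20 for C1qb (adjusted p = 0.000504) and -0.83 ± 0.18 for C1qc (adjusted p = 5.48e-05). C4a at 0.36 ± 0.28 (adjusted p = 0.285) and Serping1 at -0.16 ± 0.17 (adjusted p = 0.428) did not pass. The C1q difference was -1.21 to -1.37 in preparation 1, -0.12 to 0.02 in preparation 2 and -0.26 to -1.002 in preparation 3. The 3-month liver of mouse 12, high in C1q, was in preparation 2, and the 28-month brain of mouse 15 in preparation 3. Without that brain the C1qa difference over all preparations was -0.74. The part of these 2 libraries in the spread between preparations was not tested. For C4b the preparations gave 2.20, 1.84 and 1.29. For C3 they gave 1.18, 0.78 and 0.60, and no preparation alone passed (adjusted p = 0.0765, 0.422 and 0.293). Under RLE scaling C1qa was at -0.45 and no longer passed (adjusted p = 0.0716).

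The proportions of the C1q chains to each other were compared as ratios of levels per kilobase. The ratio of C1qa to C1qb in brain averaged 1.11 at 3 months and 1.19 ± 0.167 at 28 months, where the library of mouse 15 reached 1.81. The ratio of C1qc to C1qb averaged 0.890 at both ages, with a lowest single value of 0.507 at 28 months. In liver the ratio went from 1.05 ± 0.0515 to 0.973 ± 0.0628 for C1qa, a shift above 1 SD and opposite in direction to brain, and from 0.936 ± 0.0452 to 0.941 ± 0.0488 for C1qc. These ratios are descriptions and were not tested.

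Within an age and preparation, mice with more of one C1q chain had more of the others. Pearson r of the log2 CPM, after age and preparation means were removed, was 0.883 to 0.957 for the 3 chain pairs over 82 brains and 0.987 to 0.988 over 83 livers, with the smallest p that 100000 permutations can give (1e-05). Across preparations r ran from 0.880 to 0.973 in brain and from 0.981 to 0.993 in liver. Of 28 member pairs in brain 8 were called by r at an adjusted p under 0.05, and of 36 in liver 15. All libraries of a pair share their depth and composition, so r describes these libraries; how many other gene pairs would be called was not tested.

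**Figure D5:**
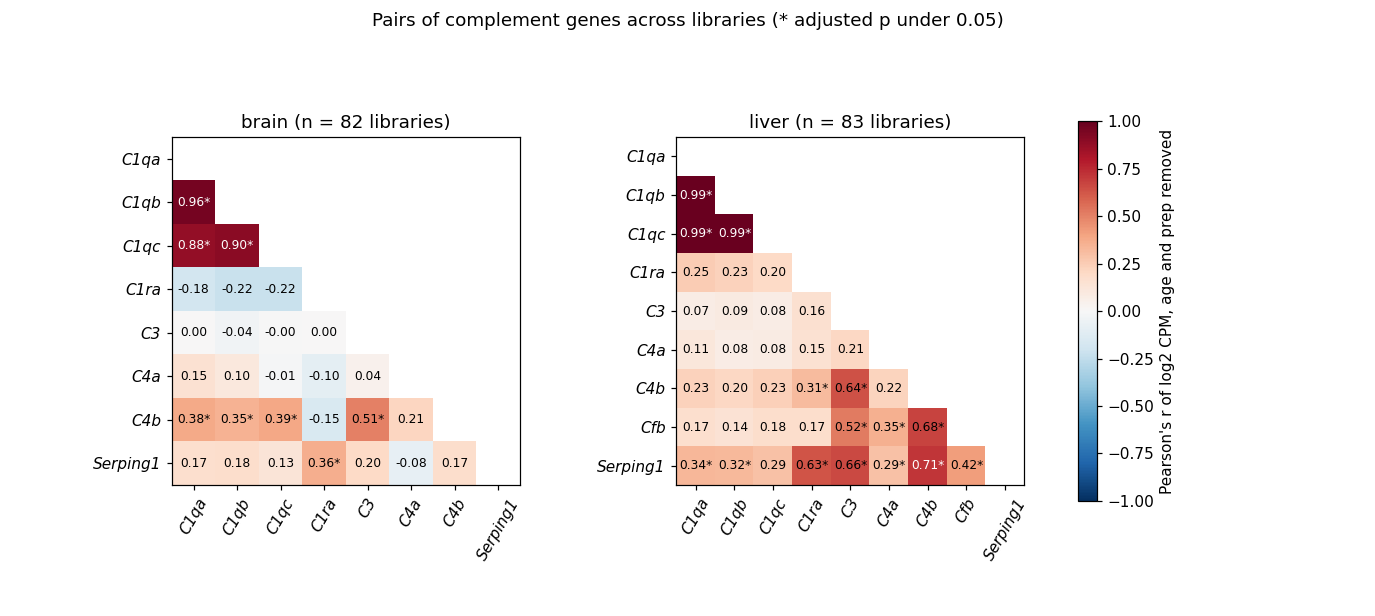
Pearson r between the log2 CPM of each pair of complement genes after removal of age and preparation means (colour scale), over 82 brain and 83 liver libraries; a star marks a permutation p under 0.05 after adjustment over the pairs of that tissue. The C1q block stands at 0.883 to 0.957 in brain and 0.987 to 0.988 in liver, and in liver C3, C4b, Cfb and Serping1 form a further block from 0.417 to 0.714.

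C3 was a partner of C4b in both tissues; differences between the tissues in r were not tested. In brain, C3 and C4b had r = 0.506 and Spearman rho = 0.478 over 82 libraries (permutation adjusted p = 7e-05), r = 0.529 without the 2 libraries farthest from the C3 median and r = 0.336 to 0.584 within preparations. Brain C4b and the C1q chains had r of 0.347 to 0.389, with 0.139 to 0.641 within preparations. C1ra and Serping1 in brain had r = 0.364, rho = 0.257 (permutation adjusted p = 0.0740 for rho) and -0.026 to 0.675 within preparations. In liver C4b went with Serping1 (r = 0.714; 0.600 to 0.750 within preparations), Cfb (0.676; 0.524 to 0.801) and C3 (0.640; 0.504 to 0.810). Liver C4b and the C1q chains, at r of 0.20 to 0.23, did not pass the permutation test by Pearson r (adjusted p of 0.0904 to 0.130). By Spearman rho C1qa (0.267) and C1qc (0.272) passed it at an adjusted p of 0.0356 each, and C1qb (0.237) did not (adjusted p = 0.0584).

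Brain and liver of 1 mouse were also compared. Over 82 mice with both tissues, r between the brain and the liver level of a member ran from -0.23 to 0.14. For C4b it was -0.23 (permutation p = 0.0635, 0.508 after adjustment over 8 members), with rho = -0.206 (permutation p = 0.0715, 0.404 after adjustment), -0.196 without the 2 mice farthest from the median, and 0.061, -0.446 and -0.265 within the preparations. None of the 8 passed after adjustment, with either prior count or within any preparation, and over all 82 mice the lowest unadjusted p was that of C4b. Without 28-month mouse 15 r moved from -0.035 to 0.208 for C1qa and from 0.061 to 0.271 for C1qb, where the unadjusted permutation p of C1qb was 0.0333 and that of C4b 0.0374, both 0.150 after adjustment.

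The 5 genes whose pattern across brain libraries was most like that of C4b, with age and preparation means removed, were Tppp3, Hapln2, Snx22, Neat1 and Prima1 (r of 0.623 to 0.651 over 82 libraries and 15007 genes). Without the 2 brains that stood apart they were Stat3 (0.736), Neat1, Arhgef10, Tppp3 and Cercam. For brain C1qa the list rested on those 2 brains. With them it was Rplp0, Mbd3, Gpx1, Rpl37 and Rplp1 (0.934 to 0.940), and without them Tyrobp (0.873), Ftl1 (0.847), Tmem119 (0.835), Abi3 (0.818) and Rps20 (0.817). In liver, over 83 libraries and 12758 genes, C4b was most like Fgl1 (0.808), Itih4 (0.805), Hc (0.802), Pzp (0.784) and Fn1 (0.782), and C1qa most like Tyrobp (0.960), Laptm5 (0.951), Fcer1g (0.947), Ctss (0.945) and Ifi30 (0.945). Both liver lists held the same 5 genes without the 2 livers that stood apart.

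Other complement genes were read from lists by role. In brain at 28 months, 2 of 4 classical pathway enzymes tested rose (median log2 fold change 0.42), the C1s protease gene C1s1 by 0.57 and C2 by 0.44. Of 3 terminal components, which form the membrane attack complex, C7 rose by 0.62 and C8g by 0.60. Of 8 receptor genes 5 rose and 1 fell (median 0.55), from Itgax, a chain of complement receptor 4, at 1.61 ± 0.21 to Cd93 at -0.42. Of 9 membrane regulators 3 fell and none rose (median -0.11), from Cr1l at -0.27 to Cd55, which speeds convertase decay, at -0.44. Of 4 lectin pathway genes 2 rose and 1 fell, from Fcna at 0.91 ± 0.28 to Masp1 at -0.11, and properdin (Cfp) fell by 0.30 ± 0.10. The 4 soluble regulators tested had a median of 0.09, and none passed. Over all brain genes 16.3% rose and 12% fell. Depth also limits several of these genes. Mean levels at 3 and 28 months were 0.193 and 0.373 CPM for Fcna, 0.422 and 1.31 for Itgax, and 0.522 and 0.784 for C7. They were 0.711 and 0.993 CPM for C2 and 0.819 and 1.30 for C8g.

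In liver at 28 months the median of the receptor genes was above and that of the terminal genes below the median of all genes, 0.01. Of 9 receptor genes 6 rose and none fell (median 1.54), from C3ar1, the C3a receptor, at 1.32 to Itgam, a chain of complement receptor 3, at 2.40. Of 7 terminal components 5 fell and none rose (median -0.61), from C8g at -0.37 to C6 at -1.66 ± 0.19. C1s1 and C1rl fell by 0.10 and 0.19 among 4 classical pathway enzymes (median -0.02). Of 7 lectin pathway genes 4 rose and 2 fell (median 0.24), from Fcna at 1.09 to Mbl1 at -0.68, and Cfp rose by 1.33 ± 0.18. Of 7 soluble regulators 2 rose and 1 fell, from Cfi, which cuts C3b, at 0.41 to Cfhr2 at -0.33. Of 6 membrane regulators 1 rose and 3 fell, from Cd46 at 0.38 to Susd4 at -0.89. Over all liver genes 31.9% rose and 30% fell.

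Markers of further cells were read beside the brain result for C4b and C3. Of 8 genes of reactive astrocytes, among them Gfap, 6 rose and none fell at 28 months (median log2 fold change 0.52), with a sum of 348 to 504 CPM at 3 months and 434 to 1104 at 28 months. Of 8 general astrocyte markers 2 rose and 2 fell (median 0.01; 3863 to 4739 against 1730 to 5286 CPM). All 6 neutrophil markers rose (median 2.86; 0.289 to 4.67 against 1.87 to 43.5 CPM), and 1 of 6 oligodendrocyte markers did (median 0.18), where 16.3% of all brain genes were called higher and 12% lower. The 7 choroid plexus markers summed to 47.9 to 6492 CPM at 3 months and 46.7 to 5364 at 28 months, a wide range at both ages (median log2 fold change -0.42, none called). Of 7 hepatocyte markers 3 of the 4 tested rose; Alb was too low to test, and its highest value of 18.5 CPM came from 1 brain, that of 28-month mouse 5, against a median of 0.0294 over all brains. The Kupffer marker Clec4f was at 0 counts in 11 of 15 brains at 3 months and 13 of 18 at 28 months. The part of any of these cells in the rise of C4b and C3 was not tested. Each list was counted whole although Itgax is both a receptor and an activated microglia gene, Vsig4 a receptor and a Kupffer marker, C6 a terminal component and a Kupffer marker, and Lcn2 a reactive astrocyte and an acute phase gene.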

How the data were processed

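The deposited values are read counts per gene, one table per tissue, with no normalization. Per the submitters' processing notes, the authors used cutadapt 2.8, HISAT2 2.1.0, SAMtools 1.9 and featureCounts (Subread 2.0.1) with GRCm38.p6; the annotation release, the strand setting and the handling of shared reads are not given in the sources used here. Per the labels' protocols, libraries were stranded and polyA-selected.

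Counts were fitted in edgeR 4.0.16 (R 4.3.3; TMM, filterByExpr, quasi-likelihood test, two-sided) with age and preparation, all ages of a tissue together, and adjusted by Benjamini-Hochberg over all tested genes at 0.05. The interaction was fitted over both tissues. Correlations used log2 CPM with a prior count of 2 and 100000 permutations within age. MAFFT 7.526 aligned the C4 transcripts. Fits were checked on simulated counts. No 2 libraries agreed within sampling noise. Named beside the members are the highest and lowest called gene of each role list, markers, and the 5 genes most like C4b and C1qa. The members and lists were chosen with earlier results of these data known. Replicate numbers were checked for pairing: over 15 pairs of brains of 3 and 28 months the median correlation of deviations was 0.139, with 8 pairs over 0.1 and a lowest of -0.42, and over 16 pairs of livers it was -0.012, with 3 over 0.1. The same correlation between brain and liver of 1 mouse had a median of 0.057 over 82 pairs, with 29 over 0.1 and a lowest of -0.18. These values therefore cannot decide whether a shared number pairs mice of different ages, which the main model took as unpaired. Alternatives were DESeq2 1.42.0, voom (limma 3.58.1), RLE scaling, no filter, single preparations, leaving out each library, a clock gene covariate and a replicate block.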

Additional observations from a re-analysis of the deposited data

Results flagged for a closer look

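A difference between groups marked 6 members, whose change from 3 to 28 months was not the same in brain and liver by the edgeR interaction term with Benjamini-Hochberg adjustment. Brain minus liver was 1.77 log2 units for C4b, 0.82 for C3 and 0.78 for C1ra. It was -0.50 for C1qa, -0.78 for C1qb and -0.83 for C1qc. For C1qa the difference was -0.45 with an adjusted p of 0.0716 under RLE scaling, and -0.74 without the brain of 28-month mouse 15. With the difference taken within each mouse, 6 members were again called, as were 46.3% of the 14035 genes tested.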

How the results depend on the processing

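With 1 preparation alone, in the order 1, 2 and 3, brain held 1, 0 and 0 called members at 9 months (10, 0 and 0 of all genes) and at 15 months (17, 11 and 0), 1, 1 and 2 at 24 months (222, 112 and 92), 5, 3 and 6 at 28 months (1987, 368 and 1205), 0, 0 and 0 from 24 to 28 months (8, 0 and 0), and 0 from 15 to 24 months in preparations 2 and 3 (0 and 0); brackets give the number of all genes called in the same fit. The test of all ages together called 2 members in brain in preparation 1 (903), 3 in preparation 2 (266), and 4 in liver in preparation 2 (4464). Liver held 0, 0 and 0 at 15 months (58, 64 and 14), 2 and 3 at 24 months in preparations 1 and 2 (906 and 2443), 4 and 1 at 28 months (6198 and 2457), 0, 3 and 2 from 15 to 24 months (3, 2630 and 1290) and 4, 0 and 0 from 24 to 28 months (2520, 0 and 198). The interaction called 1 member in preparation 2 (6.35% of all genes), where C1qa was reversed at 0.019, and 3 in preparation 3 (31.4%). Of the member pairs, 4 and 5 were called in brain in preparations 1 and 2, and 9 and 4 in liver in preparations 1 and 3. Each of these fits has fewer libraries (26 to 29 a tissue) as well as a single preparation, and these cannot be told apart.

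Voom with quality weights called 2 members in brain at 9 months (442 of all genes), 4 at 15 months (822) and 5 from 15 to 24 months (848), and in liver 1 at 9 months (316), 2 at 15 months (967) and 6 from 24 to 28 months (4157). The main counts over all genes for these comparisons were 59, 163, 137, 731, 1140 and 2385. DESeq2 called 2 in brain from 15 to 24 months (247). With the 2 ages compared fitted alone, brain held 3 at 15 months (332) and 3 from 15 to 24 months (172). Without the brain of 28-month mouse 15 that step held 4 (294), with the clock score 2 (153), and without the 2 least alike brains 2 (230). In liver the clock score left 0 from 24 to 28 months (159), the sum of C4a and C4b left 0 there (2384) and 0 at 15 months (1137), since C4a was the member called in both, and leaving out the 2 least alike livers, an alternative chosen after seeing the data, gave 3 (3768) and 4 (1636). Apart from the fits named, the cause was not tested.

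C4a at 28 months, not called in either tissue, was reversed in brain with voom (-0.078), in preparations 2 and 3 (-0.042 and -0.079), without mouse 15 (-0.029), with the clock score (-0.16) and without the 2 least alike brains (-0.030), and in liver with voom (0.10), in preparation 2 (0.00083) and with the clock score (0.015). Leaving out each library of 3 or 28 months in turn kept 6 called members in brain (33 libraries; 4663 to 5578 of all genes) and gave 8 to 9 in liver (34 libraries; 9356 to 9776), where C4a at 28 months ran from -0.56 to -0.23. A replicate block across ages left 6 called members in brain and 8 in liver at 28 months and changed no count of called members by over 1.5 times; over all genes it called 4839 and 9489. With the mouse as replicate block, taking the difference within each mouse, the interaction called 6 members and 46.3% of all genes.

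Depth limits Cfb in brain, where a count of 3 or fewer is at the floor, and C1ra there, at 17 to 178 counts, and C3, at 11 to 426. The Cfb counts are also limited by the overlap with Gm20547, as the counting of shared reads is not given.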
